A study of Rattus norvegicus with 6 samples.

Results

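The hypothalamus of rats exposed to both 2 days of heat and hypohydration was compared with that of untreated, normally hydrated (euhydrated) rats. The combined change was set against the sum of the changes under each treatment alone. The comparison uses 4 of the 6 deposited columns of the series and all 884 probes in them. The columns were chosen from their sample labels: the untreated euhydrated control, short-term heat acclimation of 2 days with no water deprivation named, hypohydration without a named heat exposure, and 2 days of heat together with hypohydration. Hypohydration was a 10% loss of body weight through water deprivation. The short-term heat label speaks of rats before and during the exposure and the label of the combined column is cut short, so sampling is dated only by the stage that each label names. No order or overlap of heat and water deprivation is assumed for the combined column. The sources used here do not give the strain, age or sex of the rats, nor the heat load. The remaining 2 columns, from 30 days of heat with and without hypohydration, entered the normalization and 1 side-by-side comparison.

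Heat acclimation is the slow adjustment of an animal to sustained heat, through evaporative cooling, changes in skin blood flow and a lower metabolic rate. The hypothalamus holds the neurons that sense brain temperature and set heat loss. It also holds the osmosensitive neurons that drive thirst and the release of vasopressin, the hormone that makes the kidney retain water. Evaporative cooling costs water, so heat and water loss reach the same brain region as competing demands. A simple reference for 2 treatments given together is that their changes add on a log scale, which is the same as multiplying the folds. A combined change that is smaller than the sum is called less than additive, one that is larger is called more than additive, and one in the other direction is called opposite.

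Each group held 1 column, so no value has an error, no difference has a replicate check and no p-value was computed. The series text speaks of 9 arrays in each hydration state, which has 3 columns here, and how arrays or animals were pooled into a column is not known. None of the 884 probe identifiers (508 beginning with R and 376 with RG) matched a gene in the rat gene table, with 0 matches. The files do not pair probes with genes, so probes are named by identifier only, without function, position or sequence, and the tissue label could not be checked against marker genes. Values are normalized intensities with no stated unit, and a level of 1 probe is not comparable with that of another. The 10% of values at or under 0.143 were set to that floor, which held 89 probes in each column, and a fold against a column at the floor is a lower bound. As deposited, the 4 columns differed in spread, with an SD of log2 intensity over probes from 0.66 in the hypohydrated to 2.14 in the combined column. Their medians lay between 0.397 in the control and 0.686 in the hypohydrated column. The hypohydrated column held no deposited value under 0.171, so a level near the floor in it is a low rank within that column. Of 102 probes at least 2-fold lower after hypohydration alone and above the floor in all 4 columns, 28 were higher than the control in the values as deposited. No probe at least 2-fold different after heat alone (325) or under both treatments (264) turned direction as deposited or after median scaling.

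Under heat and hypohydration together many probes were higher and about as many lower than in the control. Leaving out the probes at the floor in both the combined and the control column, 386 of 867 differed at least 2-fold (44.5%). Of these 199 were at least 2-fold higher in the combined column (23.0%) and 187 at least 2-fold lower (21.6%). At least 4-fold differences were found for 69 higher and 65 lower probes, and at least 8-fold differences for 12 and 13. The median change was -0.05 log2 units, which quantile normalization holds near 0 by its construction. Of the 199 higher probes, 195 were at least 2-fold higher also in the values as deposited and after median scaling, and so were all 187 of the lower probes in their direction. After median scaling the split was 202 higher and 263 lower. This scaling placed the median change of all 884 probes at -0.20, against -0.01, and leaves the unequal spreads in place. Beside these counts, 2 days of heat alone differed at least 2-fold at 53.4% of probes (27.5% higher and 25.8% lower), and hypohydration alone at 35.5% (17.4% higher and 18.1% lower). These 3 comparisons share the control column.

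The probes named for the largest upward difference under the combined treatment were R052 and R289. R052 had a level of 0.385 in the control, 4.43 after heat, 0.689 after hypohydration and 4.43 under both, a combined change of 3.52 log2 units or 11.5-fold. The heat and combined columns were high and, after normalization, equal for this probe, while the control and hypohydrated columns were low. As deposited its values were 0.323 in the control, 4.79 after heat, 0.866 after hypohydration and 4.43 under both. The equality thus appears only with normalization. R289 had levels of 0.402 in the control, 4.04 after heat, 0.154 after hypohydration and 4.04 under both, 10.1-fold above the control. Both columns with heat were high and the other two low. As deposited its values were 0.333 in the control, 4.39 after heat, 0.390 after hypohydration and 4.32 under both, so the low rank after hypohydration is not a fall in the deposited values.

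Those named for the largest downward difference, among probes above the floor after median scaling too, were RG339 and R455, which ranked 2 and 4 from the lowest among the 619 probes above the floor in all 4 columns. RG339 had levels of 5.05 in the control, 0.992 after heat, 4.43 after hypohydration and 0.363 under both, 13.9-fold lower than the control. Its combined level lay below that of heat alone, and after normalization the hypohydrated column lay close to the control. Hypohydration alone was 1.80-fold below the control as deposited, with 3.04 against 5.47. R455 had levels of 2.78, 0.419, 3.03 and 0.231 in the same order, 12.1-fold lower under both treatments, and 32.4-fold lower in the values as deposited. Hypohydration alone was 1.72-fold below the control for R455 as deposited. All 4 of these probes lay within 1.5-fold of the control under 30 days of heat with hypohydration, with differences of 0.56 for R052, -0.53 for R289, -0.32 for RG339 and -0.04 for R455 log2 units.

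Other probes reached the floor in one of the 2 columns. In the combined column 72 probes lay at the floor that were above it in the control, and another 72 lay at the floor in the control but not in the combined column. The lower bound was at least 2-fold for 37 of the former and 35 of the latter. R675 and R318 had control levels of 3.44 and 2.55 and lay at the floor both after heat and under both treatments, so they were at least 24.0-fold and 17.8-fold lower. After hypohydration alone they had levels of 2.78 and 2.55, and as deposited were 2.03-fold and 1.71-fold below the control. R683 and R212 lay at the floor in the control and had combined levels of 2.46 and 1.19, at least 17.2-fold and 8.29-fold higher. After heat alone R683 had 1.92 and R212 1.54, and after hypohydration alone 0.178 and 0.739. As deposited, with no floor, hypohydration alone was 11.3-fold (R683) and 10.2-fold (R212) above the control. The deposited control values were low, at 0.0382 and 0.0886. Of the 89 probes at the floor in the combined column, 29 lay there after heat too and 10 after hypohydration. As deposited, the combined column held the repeated value 0.01 at 36 probes and the heat column at 14, while the control and hypohydrated columns did not hold it. At the 36 probes with this value in the combined column, the control ranged from 0.0287 to 4.06 with a median of 0.219. Heat alone had a median of 0.0545 there, and the hypohydrated column had a median of 0.495 and none under 0.191.

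The combined column was more often close to the heat column than to the hypohydrated one. Among the 619 probes above the floor in all 4 columns, the nearest column to the combined value was heat for 288 probes (46.5%), the control for 179 (28.9%) and hypohydration for 152 (24.6%). The combined value lay within 2-fold of heat at 74.3% of probes, of the control at 57.4% and of hypohydration at 55.7%. The median distance was 1.48-fold to heat, 1.76-fold to the control and 1.81-fold to hypohydration. It was within 2-fold of all 3 other columns at 174 probes, of heat only at 106, of the control only at 43 and of hypohydration only at 19. At 42 probes the combined value lay 2-fold or more from all 3, below all of them at 25 and above all of them at 11. As deposited, the nearest column was heat for 229 probes, hypohydration for 184 and the control for 152, so the order of the last 2 depends on the scaling.

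Among the 4 columns the combined one held the fewest extreme values as counted. Ties went to the first column in the order control, heat, hypohydration, combined, so the combined counts are lower bounds. R052 and R289, equally high after heat and under both, counted for heat. It was the highest of the 4 at 127 probes and the lowest at 139. The control was the highest at 181 and the lowest at 177, heat at 164 and 156, and hypohydration at 147 and 147. As deposited and after median scaling the hypohydrated column held fewer extremes than the combined one, with 198 and 173 probes against 275 and 258, and the control still held the most.

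Over the probes above the floor, the combined change was on median smaller than the sum of the single changes. The sum adds 2 differences from the same control column, so variation between single columns widens it more than the combined change. How much of the gap comes from this was not tested. The median size over the 619 probes was 1.08 log2 units for heat, 0.72 for hypohydration and 0.82 for both treatments together, against 1.63 for the sum of the 2 single changes. The sum was at least 8-fold at 112 probes and the combined change at 16. Heat alone was at least 8-fold at 12 and hypohydration alone at 0. At the median the curve of change sizes places the combined treatment between both single treatments and well to the left of their sum. At 8-fold the combined curve lies slightly to the right of heat.

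**Figure D1:**
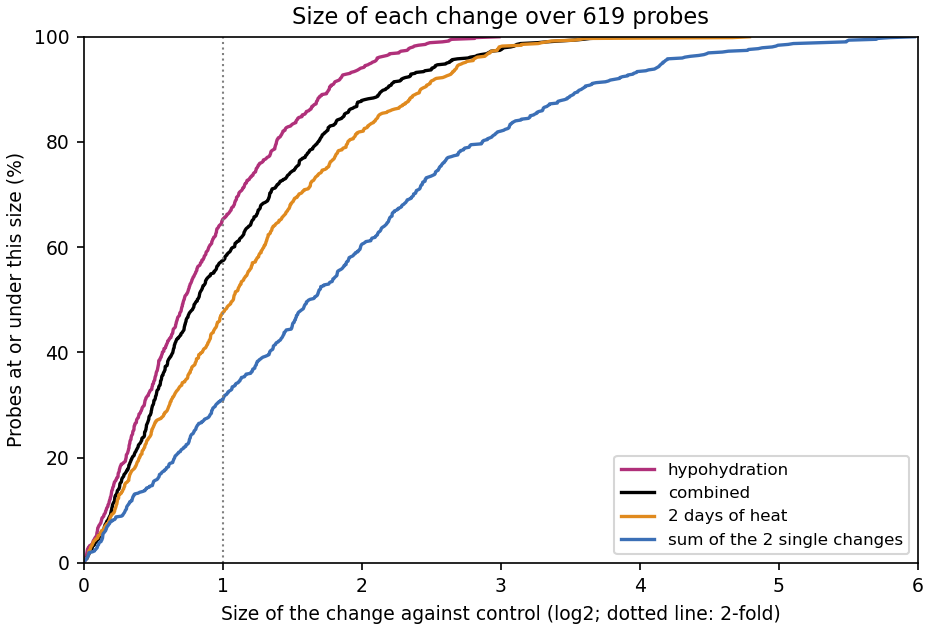
Share of the 619 probes above the floor in all 4 columns (vertical axis, percent) whose change against the control has at most the size on the horizontal axis (log2 units), for each treatment and for the sum of the single changes; each line is 1 column against the control, without replicates. At the median the combined line (0.82) lies between hypohydration (0.72) and heat (1.08), and the sum (1.63) lies to their right.

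Of the 619 probes, 485 (78.4%) had a combined change or a sum of at least 2-fold and were sorted into classes. The combined change lay within 2-fold of the sum, here called additive, at 158 probes (32.6%). It was less than additive at 262 (54.0%) and more than additive at 36 (7.42%). It was opposite to the sum, with both at least 1.5-fold, at 29 (5.98%). The boundary is a choice: 17 additive probes lay within 0.1 log2 units below it and 18 others within 0.1 above it. With a tolerance of 3-fold the additive class became the largest, at 275 probes against 171 less than additive. Among the 264 probes with a combined change of at least 2-fold, 115 were additive (43.6%), 95 less than additive (36.0%), 36 more than additive and 18 opposite. With the changes summed as linear intensities, in place of log2, the additive and less-than-additive classes held 193 and 222.

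**Figure D2:**
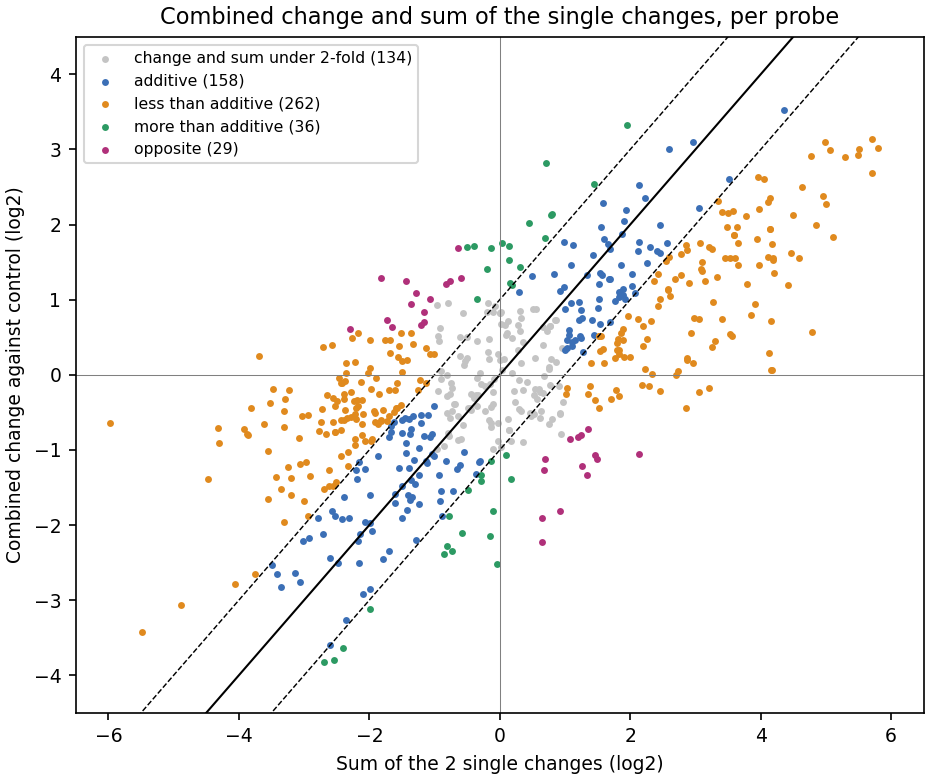
Each point is 1 of the 619 probes, placed by the sum of its 2 single changes (horizontal axis, log2) and its combined change against the control (vertical axis, log2); the solid line marks equality, the dashed lines the 2-fold tolerance, and colours the classes. The 262 less-than-additive probes lie flatter than the line on both sides, with few of the sums beyond 8-fold matched by a combined change of that size.

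The additive class followed heat for its largest members. It held 71 probes higher and 87 lower in the combined column, with a median size of 1.33 log2 units for the combined change and 1.53 for the sum. The combined value of 115 of the 158 was nearest to heat, of 37 to hypohydration and of 6 to the control. Within the class the median size was 1.21 log2 units for heat and 0.49 for hypohydration. R052, described above, had a sum of 4.36 and a combined change of 3.52 log2 units. R649 had levels of 0.251 in the control, 2.46 after heat, 0.199 after hypohydration and 2.15 under both. Its combined change of 3.10 lay 0.14 log2 units from the sum of 2.96, the closest of the additive probes named here. Among those with lower values, R455 was 12.1-fold lower under both treatments where the sum gives 6.08-fold, just inside the tolerance. R366 had levels of 3.32, 0.512, 5.05 and 0.439 in the same order, with a combined change of -2.92 and a sum of -2.10. In each of these 4 probes heat alone was beyond 6-fold and hypohydration alone under 2-fold. As deposited, hypohydration alone was 2.68-fold above the control for R052 and 2.22-fold above it for R649. In those values R052 and R649 departed from the sum by -1.53 and -1.23 log2 units and so fell in the less-than-additive class.

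The less-than-additive class held probes that differed from the control under single treatments and less so under both. The median size of the difference was 2.83-fold for heat, 2.39-fold for hypohydration and 1.55-fold for both together, against 6.07-fold for the sum. At 167 of the 262 probes the combined change was under 2-fold. The combined value was nearest to the control at 101 probes, to heat at 86 and to hypohydration at 75. At 113 probes it lay between the control and the nearer single column, at 90 between the 2 single columns, and at 13 beyond both. At 39 it lay past the control on the other side, and at the remaining 7 the single columns lay on either side of the control.

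R549 had levels of 0.185 in the control, 1.18 after heat, 0.795 after hypohydration and 0.275 under both. It was 6.39-fold higher under heat alone, 4.30-fold higher under hypohydration alone and 1.49-fold higher under both. R279 had levels of 0.281, 1.10, 1.29 and 0.293 in the same order, 3.91-fold and 4.59-fold above the control under the single treatments and 1.04-fold above it under both. In both probes the single columns were high and the combined column was low, next to the control. RG013 had levels of 1.18 in the control, 0.286 after heat, 0.242 after hypohydration and 0.720 under both. RG217 had 1.28, 0.236, 0.353 and 0.683. Both were more than 3-fold lower under each treatment, and under both treatments were 1.63-fold and 1.88-fold lower. Hypohydration alone was only 2.45-fold (RG013) and 2.36-fold (RG217) below the control as deposited. The departures from the sum were -4.21, -4.10, 3.62 and 3.40 log2 units in this order. All 4 were less than additive also in the values as deposited, with departures of -5.63, -4.88, 3.51 and 3.78.

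The measured range limits this class. For 49 of the 262 probes the level expected from the sum lay below the floor, and for 20 it lay above 5.05, the highest normalized value, so that the combined column could not show it. RG013 and RG217 were among them, with expected levels of 0.0588 and 0.0649, and R549 just so at 5.08. Over the probes whose expected level lay within the range, 193 were less than additive and 152 additive. The control enters the sum 2 times and the combined change once. A larger sum, and with it a large less-than-additive class, can therefore arise from variation between single columns alone. The same 4 values were also read from each other column as the start, predicting the column opposite to it. The less-than-additive share was then 50.8% from heat, 49.7% from hypohydration and 41.2% from the combined column, against 54.0% from the control. The additive share was between 31.5% and 33.0% from these 3 starts. From the combined column the more-than-additive share was 15.9% and the opposite share 9.87%, against 7.42% and 5.98% from the control. Less than additive was the largest class from every start. The size of this class therefore cannot tell an effect of combining the treatments apart from variation between columns.

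The more-than-additive class was small. It held 36 probes, 18 higher and 18 lower in the combined column, with a median size of 1.82 log2 units for the combined change and 0.43 for the sum. The combined value was nearest to heat at 30 of them. It was the highest of the 4 columns at 13 and the lowest at 18, with ties counted for the other column. R632 had levels of 0.295 in the control, 0.351 after heat, 0.175 after hypohydration and 0.957 under both, 3.25-fold above the control under both, with heat alone 1.19-fold above and hypohydration alone 1.68-fold below it. As deposited both single directions turned, to 1.04-fold below and 1.70-fold above the control, and the combined value was 4.16-fold above it. R337 had levels of 0.530, 1.12, 0.189 and 1.74, 3.28-fold above the control under both treatments, while heat alone was 2.12-fold higher and hypohydration alone 2.81-fold lower. As deposited hypohydration alone was 1.05-fold higher. R240 had levels of 1.84, 1.36, 2.42 and 0.320, 5.74-fold lower under both treatments, 1.35-fold lower under heat alone and 1.32-fold higher under hypohydration alone, and as deposited 8.65-fold, 1.47-fold and 1.09-fold lower. R591 had levels of 0.639, 0.466, 0.720 and 0.240, 2.66-fold lower under both and 4.53-fold lower as deposited. For R632, R240 and R591 the combined column stood apart from the other 3, which lay within a narrower range. In the values as deposited R337 was additive, with a departure of 0.69 log2 units, and the other 3 stayed more than additive. R289 and RG339, the probes of large combined change, were also more than additive, by 1.39 and -1.26 log2 units. As deposited these departures were -0.25 and -0.86, so both were additive there.

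In the opposite class the combined column differed from the control in the other direction than the sum of the single changes. Of its 29 probes, 15 were higher and 14 lower in the combined column. RG058 had levels of 0.469 in the control, 0.429 after heat, 0.146 after hypohydration and 1.15 under both, so it was 3.21-fold lower under hypohydration alone and 2.44-fold higher under both. As deposited it had 0.383 in the control, 0.367 after heat, 0.377 after hypohydration and 1.22 under both, so the lower value after hypohydration appears only with normalization. R391 had levels of 0.455, 0.261, 0.327 and 0.968, lower under each treatment alone and 2.13-fold higher under both. As deposited it was 1.51-fold higher under hypohydration alone. R702 had levels of 0.555, 0.838, 0.883 and 0.238, higher under each alone and 2.33-fold lower under both. RG159 had levels of 0.620, 0.720, 1.46 and 0.295, 2.36-fold higher under hypohydration alone and 2.10-fold lower under both. In each of these 4 probes the combined value was the highest or the lowest of the 4 columns, also as deposited. As deposited R391, R702 and RG159 stayed opposite and RG058 was more than additive.

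**Figure D3:**
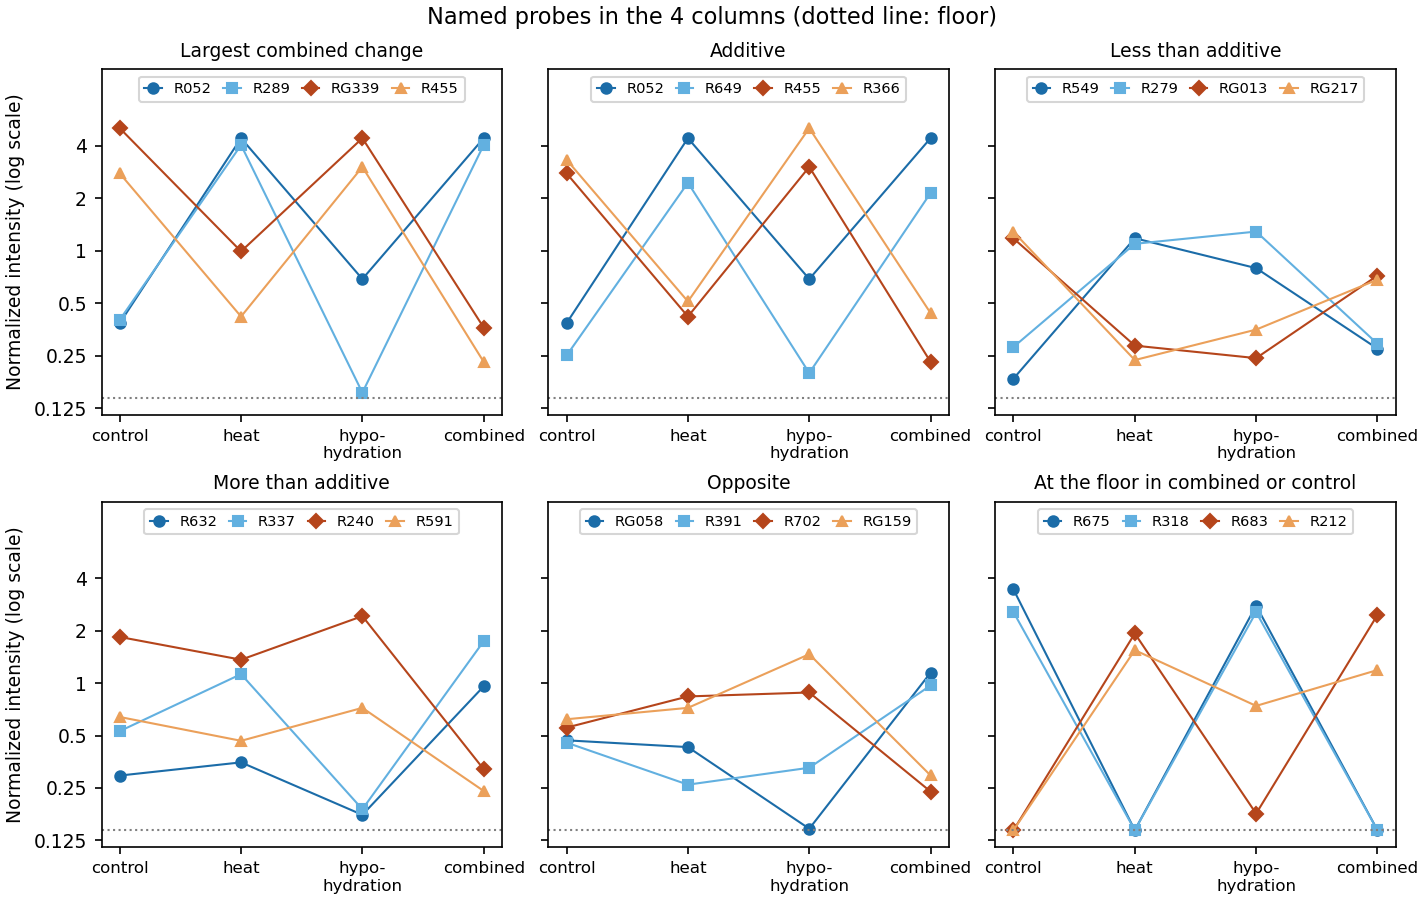
Normalized intensity (vertical axis, log scale) of each named probe in the control, heat, hypohydrated and combined columns (horizontal axis), 1 value per column and no replicates; the dotted line is the floor of 0.143 and the lines only join the values of 1 probe. Of the probes of largest combined change, R052 and R289 equal heat in the combined column, while RG339 and R455 lie below it. The less-than-additive probes lie closer to the control in the combined column than in the single ones. The opposite probes leave the range of the other 3 columns in the combined column.

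How often a probe kept its class differed between classes. The class was the same in the normalized, the deposited and the median-scaled values for 158 of the 262 less-than-additive probes (60.3%) and for 49 of the 158 additive ones (31.0%). It was the same for 8 of the 29 opposite probes (27.6%) and for 5 of the 36 that were more than additive (13.9%). A probe at the floor of another scaling in any of the columns has no class there, and these shares count it as not kept. The classes also differ in size, and a large class keeps more members by number alone. The class counts were closer than the membership, with 251 less-than-additive and 144 additive probes as deposited and 248 and 146 after median scaling.

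Among probes beginning with R the less-than-additive share was 57.6% and the median size of the departure from the sum 1.28 log2 units, and among those beginning with RG they were 49.0% and 1.05. A combined change of at least 2-fold upward was found at 23.8% of the R and 22.2% of the RG probes above the floor, and downward at 18.8% and 20.6%.

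The same classes were formed for 30 days of heat with hypohydration, a comparison that shares the control and the hypohydrated column. There 390 of 649 probes (60.1%) were sorted, of which 241 (61.8%) were additive, 118 (30.3%) less than additive, 25 (6.41%) more than additive and 6 (1.54%) opposite. At 2 days these shares were 32.6%, 54.0%, 7.42% and 5.98%. The median size of the departure from the sum was 0.55 log2 units there and 1.13 after 2 days. The single heat change behind the sum was smaller at 30 days, with a median of 0.43 log2 units against 1.08, while the combined changes were alike in size, with 0.85 and 0.82. The difference between the 2 stages was not tested, since each rests on 1 column a group. As deposited the additive and less-than-additive counts at 30 days were 288 and 156, and after median scaling 325 and 163. The additive class was the larger of the 2 at 30 days and the smaller at 2 days in all 3 scalings. R549 and R279, which lay within 1.5-fold of the control under the combined treatment at 2 days, were 2.42 and 1.82 log2 units above it under the combined treatment at 30 days, and RG013 and RG217 lay at -2.84 and -2.41.

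**Figure D4:**
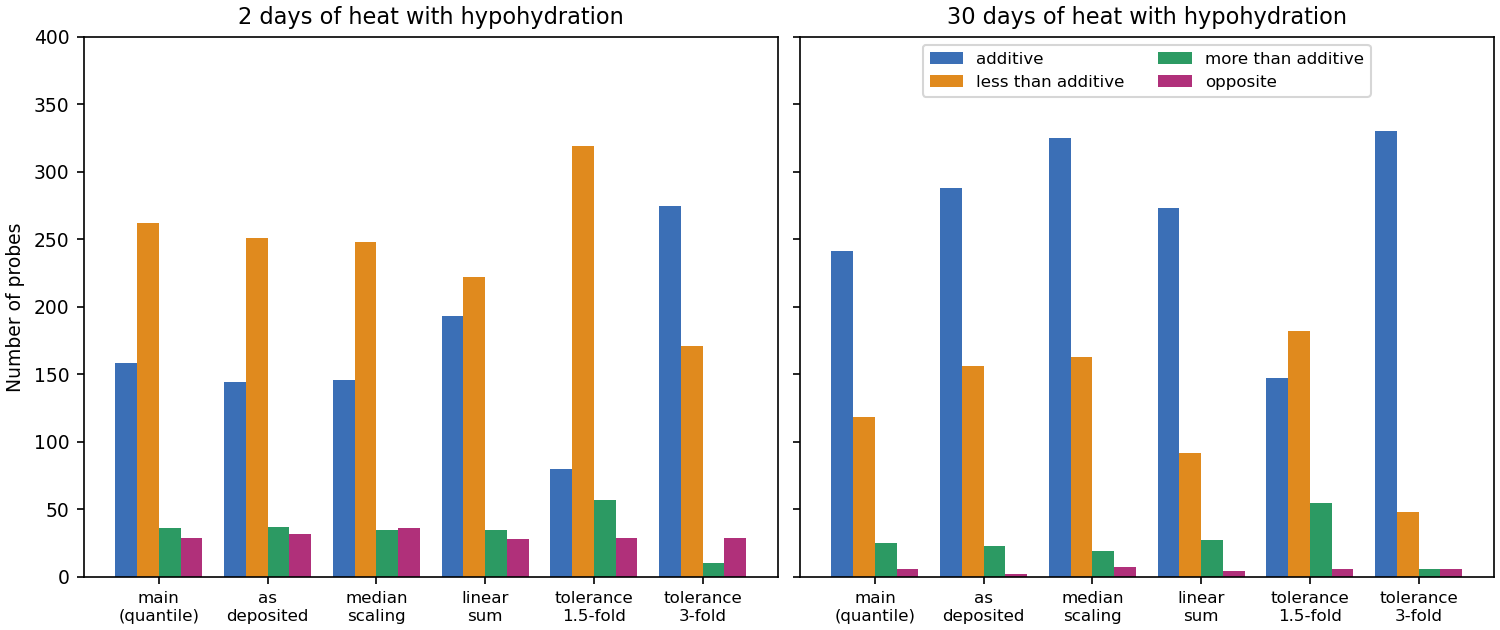
Number of probes (vertical axis) in each additivity class for hypohydration with 2 days (left) and 30 days (right) of heat, under the main setting and 5 alternatives (horizontal axis). At 2 days the less-than-additive bar is the tallest except at a tolerance of 3-fold, where 275 probes are additive; at 30 days the additive bar is the tallest except at a tolerance of 1.5-fold, where it holds 147 against 182.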

How the data were processed

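Per the labels' protocols, total RNA was reverse transcribed from Clontech primers with 32P-dATP. The authors deposited 1 table of intensities with 884 probes and 6 columns, 1 for each condition. No label or header names the array design, scanner, background correction or normalization. The values, all above 0 with a long upper tail, were taken as linear intensities; they could be ratios. The 6 columns were quantile-normalized in Python 3.11.15 with numpy 2.4.6 (limma 3.58.1 gave the same values), all values below their 10th percentile (0.143) were raised to it, and log2 was taken. The combined change was compared with the sum of both single changes at a tolerance of 2-fold, over probes above the floor in the 4 columns. The classifier code was run on simulated columns with well separated built-in classes, equal spreads and no floor. That run checks the code only, not how well classes hold in these data. No test was possible with 1 column a group, and arrays have no sequencing depth; their number limits the precision.

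The comparison, the classes and the rule for named probes were chosen with earlier results of these data known. With no gene symbols, the rule named up to 2 probes per direction and category: the largest combined change, the largest change (additive) or departure from the sum (less and more than additive), the largest smaller size of change and sum (opposite), and the highest levels opposite a floor value. Named probes outside the floor group had to keep their category after median scaling, so that agreement is no evidence of stability. The gene lists could not be used, and a planned split by level is not reported because levels of different probes are not comparable. Alternatives were the deposited values, median scaling, quantile normalization over 4 columns, other floors, a filter on probe means, other thresholds, a linear sum and, added after seeing the data, the expected level within the measured range and each column as the start.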

Additional observations from a re-analysis of the deposited data

Results flagged for a closer look

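Of 18 named probes above the floor, 6 changed at least 2-fold with hypohydration in opposite directions without heat and after 2 days of heat, as did 42 of the 619 probes above the floor in all 4 columns (20 lower without heat and higher at 2 days, 22 the reverse). Each rests on 1 column a group, and the difference was not tested. The change with hypohydration without heat and the change at 2 days were 2.11 and -2.10 log2 units for R549, a difference of -4.21. They were 2.20 and -1.91 for R279, a difference of -4.10. For RG013 they were -2.28 and 1.33, a difference of 3.62. For RG217 they were -1.86 and 1.53, a difference of 3.40. For RG058 they were -1.68 and 1.42, a difference of 3.10, but as deposited they were -0.02 and 1.74, so the opposite change appears there only with normalization. For RG159 they were 1.24 and -1.29, a difference of -2.53. For the other five both changes kept their direction as deposited. The cause was not tested. This difference is the same number as the departure of the combined change from the sum, so it adds no support to the classes.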

How the results depend on the processing

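Each group has 1 column, so none could be left out, and precision is unknown. No paired analysis was possible because no group has a second column. Counts and median departures from the sum were called unchanged within 1.5 times, which held for 140 of 172 values compared with the main ones. The 172 include the median departures by prefix and by the unreported split by level, all of which were unchanged. All the values that moved were therefore counts. A fold threshold of 1.5 gave 286 lower probes in the combined column (281 higher), and one of 3 gave 116 higher and 107 lower. With the floor at the 25th percentile, which leaves fewer probes, the 2-day classes held 155 less than additive, 19 more than additive and 17 opposite. The 30-day classes then held 58, 10 and 2, the nearest column was heat for 174 and hypohydration for 101 probes, and the extremes numbered 205 for heat, 181 for hypohydration and 175 for the combined column. With no floor, 57 probes were more than additive and 45 opposite at 2 days, and 186 less than additive, 44 more than additive and 15 opposite at 30 days. A tolerance of 1.5-fold gave 80 additive and 57 more-than-additive probes at 2 days, and 147 additive, 182 less than additive and 55 more than additive at 30 days. One of 3-fold gave 275 additive, 171 less than additive and 10 more than additive at 2 days, and 48 less than additive and 6 more than additive at 30 days. With floor values included, 40 were more than additive at 30 days. As deposited 2 probes were opposite at 30 days, and after median scaling the hypohydrated column was extreme at 173. Of 206 values of named probes under the alternatives, 37 moved by over 1.5-fold and 1 of at least 2-fold reversed. The reversed one was the departure of R289 from the sum, from 1.39 to -0.25 log2 units as deposited. The 206 include the values with no floor and with the filter, which could not differ from the main ones. These probes lie above the floor, and the filter only removes probes, so the unmoved values overstate stability. The combined change of R279, near 0 at 0.06, was -0.28 as deposited and -0.53 after median scaling. That of R455 was -3.59, -5.02 and -5.27 in the same order, and that of R591 -1.41, -2.18 and -2.43. The causes were not tested.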
